A study of Mus musculus with 12 samples.

Results

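Transcripts of the neurotrophins Bdnf and Ntf3 and of the receptors Ntrk2, Ntrk3, Ngfr and Sort1 were followed through the RNA sequencing libraries of a study of mouse dorsal hippocampus at postnatal day 7. The 6 genes were chosen by symbol, and all 6 had a row among the 52634 genes of the deposited count table. Control pups had the genotype SERTfl/fl (SERTfl/fll in the sample titles), in which both copies of Slc6a4, the serotonin transporter gene, are flanked by loxP sites. SERTPyramid pups (written SERTPyramid∆ in the sample titles) share that floxed gene, which by the name of the genotype is deleted in pyramidal neurons. The series title places the question in CA3 pyramidal neurons and asks for sex-biased effects. The sources used here do not give the Cre line that defines the deleted cells, or say whether pools shared litters. Each combination of genotype and labelled sex had 3 libraries, 12 in all, and each library pooled the dorsal hippocampus of 4 mice. A p-value for a difference between groups sets it against the spread among these pools, part of which may be technical.

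Neurotrophins are secreted growth factors that guide the survival, branching and synaptic maturation of neurons. BDNF acts through the receptor tyrosine kinase TrkB, encoded by Ntrk2, and NT-3 acts mainly through TrkC, encoded by Ntrk3. Both signal through the MAP kinase, PI3 kinase and phospholipase C pathways. The precursor forms instead bind the p75 receptor, encoded by Ngfr, together with sortilin, encoded by Sort1, and that pair is known for growth cone collapse and cell death. In the hippocampus BDNF is made mainly by excitatory neurons, and Bdnf is a classical gene of the response to neuronal activity. Ntrk2 and Ntrk3 also give truncated receptors without a kinase domain, and the truncated TrkB is abundant in astrocytes.

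The deposited value of a gene adds up reads from all of its transcripts, which matters most for Bdnf, where many alternative 5′ exons with their own promoters are spliced to a common coding exon. RefSeq (GRCm38.p6) gave promoter windows of 250 bases for 11 start sites of 4 of the 6 genes: 7 for Bdnf, 2 for Ntf3, 1 for Ngfr and 1 for Ntrk2. Ntrk3 and Sort1 had no entry. The 3 windows below show how different the starts are whose reads a single Bdnf or Ntf3 value merges, each printed 5′ to 3′ along the gene with its last base next to the start site. Capitals mark TCACGTCA, a variant of the cAMP response element, which is the motif bound by CREB.
Bdnf, chr2:109674450-109674699, plus strand, the first start: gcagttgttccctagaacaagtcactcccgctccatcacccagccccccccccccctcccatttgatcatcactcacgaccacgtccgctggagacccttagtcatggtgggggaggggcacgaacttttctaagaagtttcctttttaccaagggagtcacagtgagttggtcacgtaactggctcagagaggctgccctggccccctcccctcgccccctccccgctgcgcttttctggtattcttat
Bdnf, chr2:109692186-109692435, plus strand, a downstream start: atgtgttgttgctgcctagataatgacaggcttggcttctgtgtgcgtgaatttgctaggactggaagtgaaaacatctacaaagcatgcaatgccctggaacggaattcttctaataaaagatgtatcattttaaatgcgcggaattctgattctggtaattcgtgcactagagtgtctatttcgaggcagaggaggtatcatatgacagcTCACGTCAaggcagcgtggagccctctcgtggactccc
Ntf3, chr6:126164961-126165210, minus strand: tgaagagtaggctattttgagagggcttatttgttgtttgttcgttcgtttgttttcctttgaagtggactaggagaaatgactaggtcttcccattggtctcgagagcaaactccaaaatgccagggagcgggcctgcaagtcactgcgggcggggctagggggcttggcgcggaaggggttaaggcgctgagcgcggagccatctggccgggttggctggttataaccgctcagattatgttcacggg
GC content was 58.0% in the first Bdnf window, 45.6% in the downstream Bdnf window and 54.0% in the Ntf3 window, and it ran from 39.2% to 70.4% over the 11 windows. Motifs were searched on both strands. TCACGTCA was in 1 of the 11 windows, against 0.350% of 32851 RefSeq mouse promoter windows of the same length, and the full element TGACGTCA was in 0 of 11, against 1.55%. The core TGACG was in the same downstream Bdnf window, where it overlaps the capitals, and in 17.8% of all windows. The GC box GGGCGG was in 5 of the 11 windows, against 32.7% of all, the TATA motif TATAA in 2, against 22.8%, and the E-box CACGTG in 1, against 6.02%. A match is a string of letters and no measured binding, and the gene-level values below do not resolve the starts.

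Library totals ran from 18747249 to 25522347 counts, so that 3 counts, the upper limit that a count of 0 allows, equal 0.118 to 0.160 CPM, the count per 1000000 counts of the library; such limits cover counting error only. Slc6a4 itself had 0 to 17 counts a library, and its loss was not detectable at this depth. Sex-chromosome transcripts went against the label in 10 of the 12 libraries: control replicate 1 of each labelled sex matched its label, and the other 10 did not. Labelled female and labelled male therefore name the label only, no library was moved, and the edgeR fit of all libraries was repeated without both control replicates 1. By these transcripts each control group mixed libraries of both sexes, whereas each SERTPyramid group did not. With all 12 libraries, genotype within a label is therefore confounded in part with sex composition. The defining hippocampal markers Neurod6, Slc17a7 and Prox1 were present in every library, with at least 294.7, 1110 and 180.3 CPM. Among the thalamic markers, Gbx2 was at 0 in 5 libraries and reached 0.118 CPM, but the others were present in every library. Prkcd had 50.3 to 61.4, Lhx9 20.1 to 28.2, Tcf7l2 4.59 to 7.09 and Lef1 4.74 to 7.45 CPM. The part of thalamic tissue in the libraries was not tested. Choroid plexus markers summed to between 26.0 and 2450 CPM. In tissue of this kind, fewer cells of a type and less RNA per cell cannot be told apart.

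Per kilobase of exon, Sort1 was the most abundant of the 6 transcripts and Ngfr the least. Before division by exon length Ntrk2 was highest, at 429 to 544 CPM, against 282 to 348 CPM for Sort1. The order of Sort1 and Ntrk2 therefore depends on the exon lengths used. Sort1 (ENSMUSG00000068747, GRCm38 chromosome 3, 108284082 to 108361511, plus strand) had 42.1 ± 2.22 CPM per kilobase of exon (SD, n = 12), above 93.1% of the 15023 genes with a mean of at least 1 CPM. Ntrk2 (ENSMUSG00000055254, chromosome 13, 58806569 to 59133970, plus strand) had 26.3 ± 1.75 (SD, n = 12) on this scale. Ntrk3 (ENSMUSG00000059146, chromosome 7, 78175959 to 78738012, minus strand) had 7.20 ± 0.628 (SD, n = 12). Both Trk receptors had higher means than their main ligands, described next.

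Ntf3 (ENSMUSG00000049107, chromosome 6, 126101412 to 126166910, minus strand) had 6.28 ± 0.845 CPM per kilobase (SD, n = 12), and Bdnf (ENSMUSG00000048482, chromosome 2, 109674700 to 109727007, plus strand) had 3.61 ± 0.230 (SD, n = 12). Ngfr (ENSMUSG00000000120, chromosome 11, 95568818 to 95587735, minus strand) had 1.75 ± 0.295 (SD, n = 12), against a median of 5.32 over the 15023 genes. The lowest library of Sort1, at 37.3 CPM per kilobase, was above the highest of Ntrk2, at 28.2, and the steps from Ntrk2 to Ntrk3, from Ntf3 to Bdnf and from Bdnf to Ngfr did not overlap either. Ntrk3 and Ntf3 overlapped. Exon length is that of all annotated exons of a gene joined. With the shorter basic transcript set Ntrk3 came to 9.87 and Ntrk2 to 32.0 CPM per kilobase, and Ntrk3 no longer overlapped Ntf3.

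Ntf5, which encodes NT-4, another TrkB ligand, had 3 to 13 counts a library. It was near the limit of detection and did not enter the tests.

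Within a library, Ntrk2 exceeded its ligand Bdnf per kilobase by a median of 7.37-fold, with a range of 6.22 to 8.81 over the 12 libraries. With the basic transcript set the mean level of Ntrk2 was higher, at 32.0 CPM per kilobase, and that of Bdnf stayed at 3.61. Ntrk3 over its ligand Ntf3 had a median ratio of 1.14 and a range of 0.843 to 1.46 that spans equality, but with the basic transcript set the median was 1.57 and the range, 1.16 to 2.00, lay above it. Sort1 exceeded its partner Ngfr by a median of 23.8-fold, with a range of 19.2 to 34.1. Bdnf stood at a median of 0.607 of Ntf3, with a range of 0.429 to 0.700. The widths of the transcripts' spread differed as well: the coefficient of variation over the 12 libraries was 5.27% for Sort1, 6.38% for Bdnf, 6.65% for Ntrk2, 8.73% for Ntrk3, 13.5% for Ntf3 and 16.8% for Ngfr, against a median of 7.36% over the 15023 genes.

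**Figure D1:**
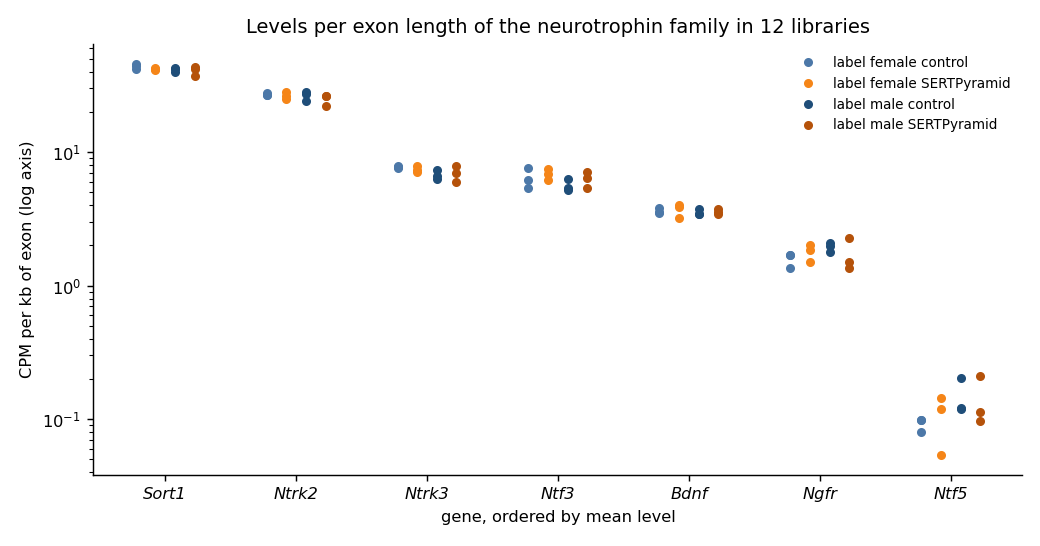
Levels of the 6 neurotrophin and receptor genes and of Ntf5, in CPM per kilobase of exon on a log axis, with 1 point for each of 12 libraries. Sort1 and Ntrk2 sit highest, Ntrk3 overlaps Ntf3 with the exon lengths plotted, and Ntf5 lies near the limit of detection.

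Among the ligands, Bdnf had 23.8, 21.6 and 22.0 CPM in labelled-female controls and 24.2, 19.9 and 24.8 CPM in labelled-female SERTPyramid libraries. In labelled males it had 21.4, 21.5 and 23.3 CPM in controls and 23.2, 21.4 and 21.9 CPM in SERTPyramid. The genotypes overlapped in both labelled sexes, and the lowest and highest Bdnf libraries belonged to the same group, labelled-female SERTPyramid. The log2 fold change of SERTPyramid over control, by edgeR, was 0.02 ± 0.08 for labelled females (SE, adjusted p = 0.969) and -0.01 ± 0.08 for labelled males (SE, adjusted p = 0.999). Averaged over both labelled sexes it was 0.01 ± 0.06 (SE, adjusted p = 0.993), with a 95% interval of -7.58% to 9.15% for the difference in level.

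Ntf3 varied more. It had 10.6, 9.23 and 13.0 CPM in labelled-female controls and 11.8, 12.8 and 10.5 CPM in labelled-female SERTPyramid libraries. In labelled males it had 8.96, 9.17 and 10.8 CPM in controls and 9.14, 11.0 and 12.2 CPM in SERTPyramid. The groups overlapped, and the lowest library was a labelled-male control. By edgeR, SERTPyramid over control gave 0.08 ± 0.13 in labelled females (log2, SE, adjusted p = 0.914), 0.14 ± 0.13 in labelled males (SE, adjusted p = 0.999) and 0.11 ± 0.09 averaged over both (SE, adjusted p = 0.819). The 95% interval of the average was -5.52% to 23.2%.

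Among the receptor tyrosine kinases, Ntrk2 had 537, 520 and 517 CPM in labelled-female controls and 505, 544 and 479 CPM in labelled-female SERTPyramid libraries. In labelled males it had 466, 527 and 539 CPM in controls and 504, 511 and 429 CPM in SERTPyramid. The genotypes overlapped, and labelled-male SERTPyramid replicate 3 was the lowest of all 12 libraries. By edgeR, SERTPyramid over control gave -0.06 ± 0.07 in labelled females (log2, SE, adjusted p = 0.874), -0.10 ± 0.07 in labelled males (SE, adjusted p = 0.999) and -0.08 ± 0.05 averaged over both (SE, adjusted p = 0.789). The interval of the average was -12.3% to 2.21%. Without both control replicates 1 the same changes were -0.04 ± 0.08, -0.16 ± 0.08 and -0.10 ± 0.05 (log2, SE, adjusted p = 0.960, 0.798 and 0.611 by edgeR). Reads of full-length and truncated TrkB transcripts are summed in these values.

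Ntrk3 had 236, 235 and 228 CPM in labelled-female controls and 236, 223 and 212 CPM in labelled-female SERTPyramid libraries. In labelled males it had 190, 221 and 199 CPM in controls and 235, 211 and 181 CPM in SERTPyramid. Labelled-male SERTPyramid libraries ran from the lowest Ntrk3 value to nearly the highest, and the genotypes overlapped. By edgeR, SERTPyramid over control gave -0.07 ± 0.08 in labelled females (log2, SE, adjusted p = 0.858), 0.03 ± 0.08 in labelled males (SE, adjusted p = 0.999) and -0.02 ± 0.06 averaged over both (SE, adjusted p = 0.952). The interval of the average was -9.70% to 7.07%.

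Of the receptors for the precursors, Ngfr was measured with the fewest counts, 107 to 183 a library. It had 4.65, 5.87 and 5.79 CPM in labelled-female controls and 6.98, 6.31 and 5.16 CPM in labelled-female SERTPyramid libraries. In labelled males it had 6.13, 6.82 and 7.17 CPM in controls and 7.82, 5.16 and 4.70 CPM in SERTPyramid. The highest Ngfr value, 7.82 CPM, was in labelled-male SERTPyramid replicate 1. That library had the highest choroid plexus marker sum, 2450 CPM. It also had the highest sums of meningeal fibroblast (280 CPM), oligodendrocyte (249 CPM) and red cell markers (69.2 CPM). Labelled-male control replicate 1, next highest in choroid plexus markers at 1809 CPM, had 6.13 CPM of Ngfr. Labelled-female control replicate 1, the lowest in Ngfr, had 219 CPM of oligodendrocyte markers. Labelled-male SERTPyramid replicate 2, at 5.16 CPM of Ngfr, had 274 CPM of meningeal fibroblast markers. Over the 12 libraries Pearson's r of Ngfr with these sums, on the log2 scale, was 0.41, 0.25, 0.16 and 0.30 in the order named. The part of any such tissue in the values was not tested. By edgeR, SERTPyramid over control gave 0.16 ± 0.17 in labelled females (log2, SE, adjusted p = 0.845) and -0.20 ± 0.17 in labelled males (SE, adjusted p = 0.999). The 95% intervals of these differences, -12.6% to 43.2% and -31.9% to 10.6%, were the widest of the 6 genes. The average was -0.02 ± 0.12 (SE, adjusted p = 0.984).

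Sort1 had 348, 336 and 318 CPM in labelled-female controls and 324, 312 and 318 CPM in labelled-female SERTPyramid libraries. In labelled males it had 298, 323 and 316 CPM in controls and 330, 318 and 282 CPM in SERTPyramid. Labelled-female control replicate 1 was the highest and labelled-male SERTPyramid replicate 3 the lowest library, and the genotypes overlapped. By edgeR, SERTPyramid over control gave -0.09 ± 0.06 in labelled females (log2, SE, adjusted p = 0.752), -0.02 ± 0.06 in labelled males (SE, adjusted p = 0.999) and -0.05 ± 0.04 averaged over both (SE, adjusted p = 0.810). The interval of the average, -9.48% to 2.42%, was the narrowest of the 6 genes.

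**Figure D2:**
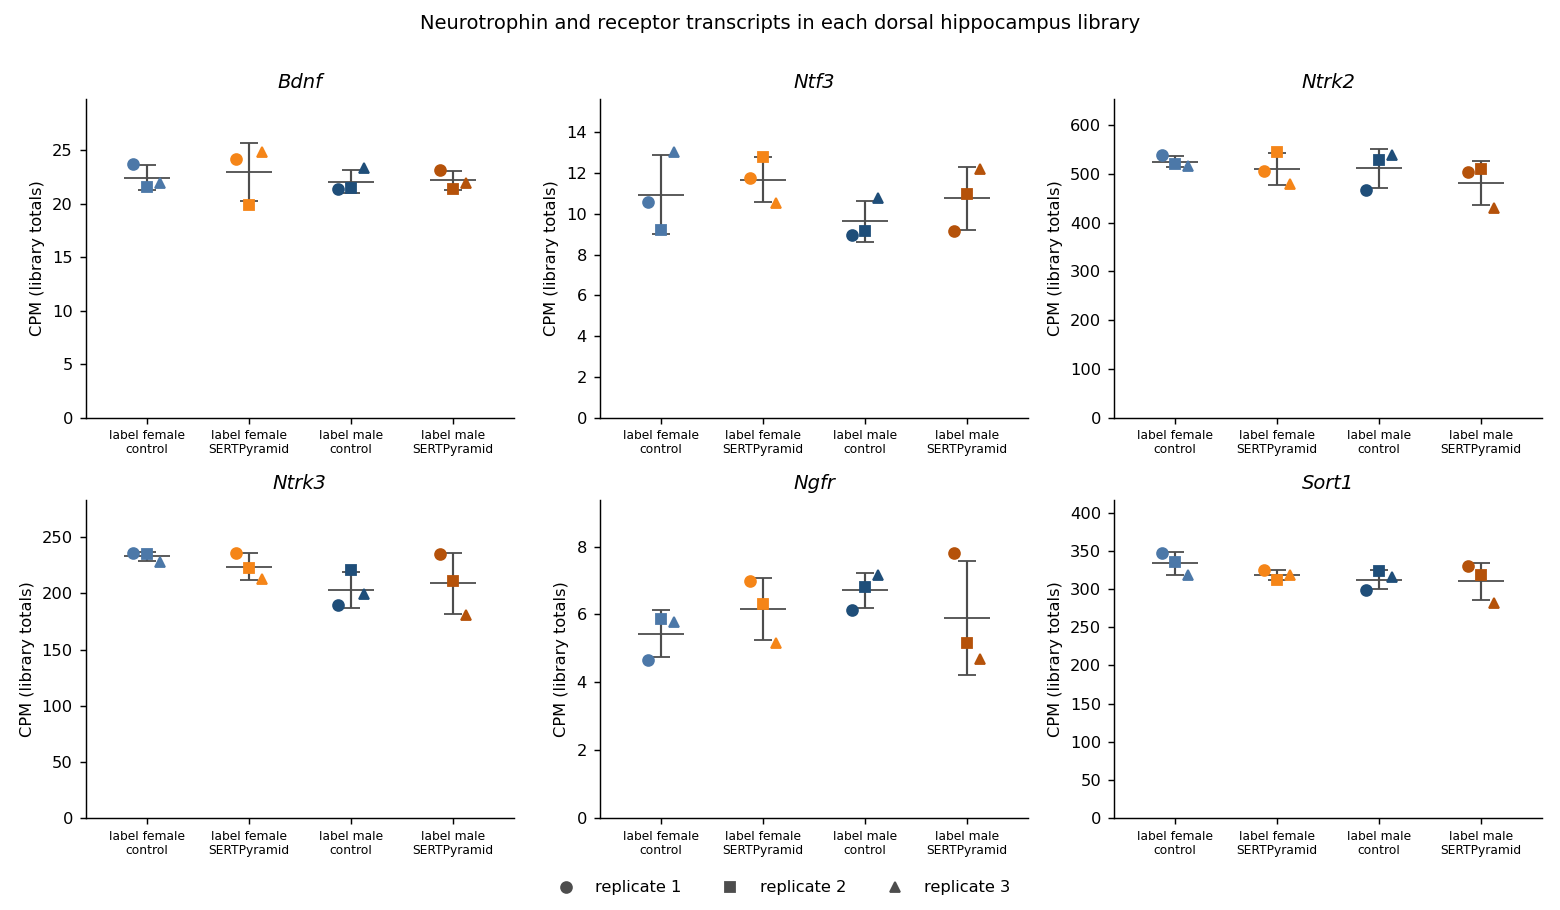
CPM of each of the 6 genes in each of 12 libraries, by genotype and labelled sex, from an axis that starts at 0, with horizontal lines and bars for the mean and SD of 3 libraries. Control and SERTPyramid libraries overlap for all 6 genes in both labelled sexes.

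None of the 6 passed an adjusted p of 0.05 by edgeR between genotypes, and the groups overlapped for all of them. Among labelled females 0 of 6 were called and 0 of 6 had an unadjusted p under 0.05, against 0% called and 8.04% at that unadjusted p among the 17631 genes tested, and groups that did not overlap were found for 0 of 6 genes against 18.9%. Among labelled males the counts were also 0 of 6, against 0% called, 3.16% at the unadjusted p and 6.93% with groups that did not overlap. For the average of both labelled sexes they were 0 of 6, against 0% and 6.49%. DESeq2 and limma voom also called 0 of the 6 in these 3 comparisons, and neither gave any of them an unadjusted p under 0.05. Over all genes DESeq2 called 1, 0 and 0 genes and limma voom 0 in each. Without both control replicates 1, edgeR called 0 of 17938 genes in each of these 3 comparisons. The smallest unadjusted p of the 6 was then 0.0519, for Ntrk2 among labelled males. The average log2 changes in that fit were 0.02 for Bdnf, 0.08 for Ntf3, -0.10 for Ntrk2, -0.04 for Ntrk3, -0.10 for Ngfr and -0.05 for Sort1. A p above the threshold does not show that the genotypes are alike. Dentate granule markers, summed, were at 467 to 501 CPM in labelled-female SERTPyramid libraries and 531 to 609 CPM in their controls. Among labelled males the direction was the opposite, with 557 to 577 CPM in SERTPyramid and 508 to 533 CPM in controls. Oligodendrocyte precursor markers did not overlap either among labelled females, at 618 to 632 CPM in SERTPyramid and 592 to 597 CPM in controls. Nor did red cell markers, at 43.8 to 53.5 CPM in SERTPyramid and 58.0 to 67.1 CPM in controls. Among labelled males the genotypes overlapped for both of these lists. The part of these markers' cells in the values of the 6 genes was not tested. The median log2 fold change of the 6 was -0.02 in each of the 3 comparisons, against medians of -0.0004, 0.0016 and -0.0012 over all genes tested.

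A fit of the labelled-female libraries alone, which estimates the spread from those 6 libraries, called 415 of 17108 genes, or 2.43%, and 13.9% had an unadjusted p under 0.05. It called 0 of the 6 neurotrophin and receptor genes. Sort1 alone of them had an unadjusted p under 0.05, and its adjusted p by edgeR was 0.328 at a log2 difference of -0.08 ± 0.04 (SE). The same fit for labelled males called 0 of 6 genes, 0 of them at an unadjusted p under 0.05, against 0% and 1.86% of 17049 genes.

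**Figure D3:**
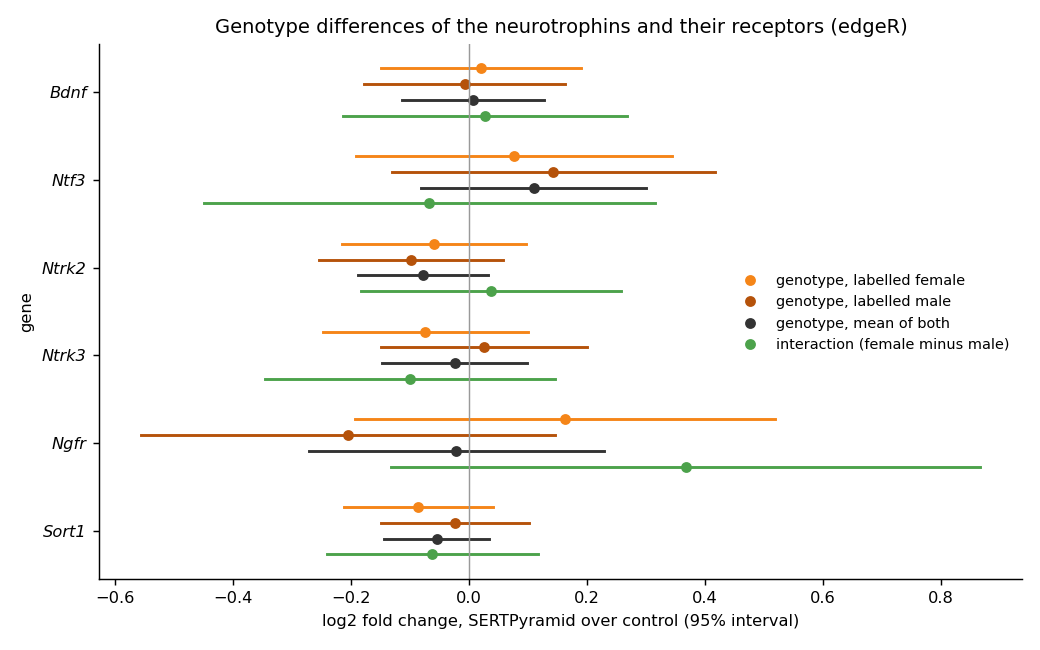
Log2 fold changes of SERTPyramid over control for the 6 genes with 95% intervals from edgeR, among labelled females, among labelled males and for their average, and the difference of the labelled-female and labelled-male changes. Every interval includes 0, and those of Ngfr are the widest.

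The study's question about sex was approached by label only, as the genotype change among labelled females minus that among labelled males. With all 12 libraries this does not compare the sexes, since each control group mixed both by sex-chromosome transcripts. The difference between labels passed the test for 0 of 6 genes by edgeR. At an unadjusted p under 0.05 there were 0, against 0% called and 4.45% at the unadjusted p over all genes. DESeq2 and limma voom also called 0 of the 6, and 1 and 0 of all genes. The largest difference was that of Ngfr, 0.37 ± 0.24 on the log2 scale (SE, adjusted p = 0.999), whose interval ran from -0.13 to 0.87. The other 5 differences lay between -0.10 and 0.04. Without control replicate 1 of both labelled sexes the Ngfr difference was 0.33 ± 0.26 (SE, adjusted p = 0.999).

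Between the labels themselves, averaged over both genotypes, edgeR called 0 of 6 genes, against 0% of all genes tested. Ntrk3 alone of the 6 had an unadjusted p under 0.05, as did 9.01% of all genes, and it was lower in labelled males, with a log2 difference of -0.15 ± 0.06 (SE, adjusted p = 0.495). DESeq2 and limma voom called 0 of the 6, and 19 and 1 of all genes. Each gave 1 of the 6 an unadjusted p under 0.05, against 1183 genes by DESeq2 and 10.8% of 17631 genes by limma voom. With no filter on low counts the adjusted p of Ntrk3 by edgeR was 0.0308, in a fit that called 194 of 34328 genes. Without both control replicates 1 the change was -0.11 ± 0.07 (SE, adjusted p = 0.614). Among controls, the labelled sexes did not overlap for 2 of the 6 genes, Ntrk3 and Ngfr, against 12.3% of all genes, and among SERTPyramid libraries for 0 of 6, against 12.7%. Since most libraries go against their label, no direction by sex is drawn from these values.

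The wider pathway was described through 7 lists with 96 distinct genes, of which 88 passed the filter on low counts: ligands, receptors, proneurotrophin processing and release, p75 partners, Trk adaptors and signalling, genes that respond to BDNF or activity, and the GDNF and CNTF families. None of the 88 passed an adjusted p of 0.05 by edgeR, DESeq2 or limma voom in any of the 5 comparisons. At an unadjusted p under 0.05 there were 8 (9.09%) for genotype among labelled females, 2 (2.27%) among labelled males and 9 (10.2%) for their average, against 8.04%, 3.16% and 6.49% of all genes. DESeq2 gave 6, 2 and 7 at that unadjusted p, against 5.98%, 1.75% and 4.71% of all genes. Limma voom gave 12, 3 and 15, against 13.3%, 4.0% and 10.6% of all genes. For the difference between labelled sexes edgeR gave 5 (5.68%) and for labelled sex 6 (6.82%), against 4.45% and 9.01% of all genes. The median log2 fold change of the 88 for the average was -0.02.

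From the lists, with the 6 genes above set aside, the genes with the smallest p for the average genotype difference were singled out. For this average 6.49% of all genes had an unadjusted p under 0.05, the share to set beside the counts of each list. Among the other receptors, the sortilin relatives Sorcs2 and Sorcs3 stood at -0.02 ± 0.03 and 0.01 ± 0.05 (SE, adjusted p = 0.906 and 0.972), and 0 of 8 receptors tested had an unadjusted p under 0.05. In processing and release, Cadps2, which encodes a priming factor for dense-core vesicles, stood at -0.08 ± 0.03 and Hap1, which encodes a carrier protein for proBDNF transport, at 0.09 ± 0.04 (SE, adjusted p = 0.756 for both by edgeR). These were the 2 of 11 with an unadjusted p under 0.05, and they pointed in opposite directions.

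Among the p75 partners 0 of 7 had an unadjusted p under 0.05. The Nogo receptor relative Rtn4rl1 stood at -0.06 ± 0.03 and the p75 relative Nradd at 0.19 ± 0.13 (SE, adjusted p = 0.768 and 0.796 by edgeR). Of 34 Trk adaptors and signalling genes, 5 had an unadjusted p under 0.05, 4 with lower and 1 with higher values in SERTPyramid. Shc1, an adaptor that links Trk receptors to downstream signalling, stood at 0.19 ± 0.07 (SE, adjusted p = 0.756 by edgeR). Of 16 genes that respond to BDNF or activity, 1 had an unadjusted p under 0.05: Npas4, an immediate early transcription factor, at 0.18 ± 0.08 (SE, adjusted p = 0.756 by edgeR). Dusp4, a MAP kinase phosphatase, stood at -0.06 ± 0.04 (SE, adjusted p = 0.796 by edgeR). In the GDNF and CNTF families 1 of 9 did: Artn, which encodes the GDNF relative artemin, at -0.53 ± 0.24 (SE, adjusted p = 0.756 by edgeR), while the receptor Lifr stood at -0.07 ± 0.06 (SE, adjusted p = 0.819 by edgeR). Artn was near the limit of detection, with group means of 0.338 to 0.582 CPM (TMM scaling), where 3 counts equal 0.118 to 0.160 CPM.

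The receptor genes Ntrk2, Ntrk3 and Sort1 shared their lowest libraries. All 3 were at their lowest in labelled-male SERTPyramid replicate 3 (429, 181 and 282 CPM). All 3 were next lowest in labelled-male control replicate 1 (466, 190 and 298 CPM). Their high libraries were not all shared: labelled-male control replicate 3 had the second highest Ntrk2 value, 539 CPM, and the third lowest of Ntrk3, 199 CPM. Over the 12 libraries, on log2 CPM with TMM scaling, Ntrk3 and Sort1 had Pearson's r = 0.87 (permutation p = 0.00034, adjusted over 21 relations 0.00714) and Spearman's rho = 0.74 (permutation p = 0.00829, adjusted 0.124). Without the 2 libraries farthest from the median of Sort1, labelled-female control replicate 1 and labelled-male SERTPyramid replicate 3, r was 0.73. Ntrk2 and Sort1 had r = 0.79 (permutation p = 0.00461, adjusted 0.0194) and rho = 0.52 (permutation p = 0.0916, adjusted 0.385), with r = 0.41 without the same libraries. Ntrk2 and Ntrk3 had r = 0.71 (permutation p = 0.0133, adjusted 0.0466) and rho = 0.41 (permutation p = 0.193, adjusted 0.450), and r was -0.14 without labelled-male control replicate 1 and labelled-male SERTPyramid replicate 3, so that relation rests on those 2 libraries. The relation of Ntrk2 and Sort1 rests on its 2 libraries in large part. Within groups, as deviations from group means, r was 0.87, 0.77 and 0.75 for the 3 pairs. The other 12 pairs of the 6 genes did not pass an adjusted p of 0.05, and no pair did so by rho.

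The same 2 labelled-male libraries stood apart in the balance of long and short transcripts. As a measure chosen after the values were seen, the median log2 deviation of 2675 gene models with at least 8000 bases of exon was taken minus that of 2292 with at most 2000 bases. It was lowest in labelled-male SERTPyramid replicate 3, at -0.15, next lowest in labelled-male control replicate 1, at -0.10, and between -0.03 and 0.08 in the other 10 libraries. Ntrk3 and Ntrk2 have long models, with 30170 and 19292 bases of exon, and Sort1 has 7569. Against this balance, r was 0.85 for Ntrk3, 0.84 for Ntrk2 and 0.81 for Sort1 (permutation p = 0.00147, 0.00153 and 0.00201, adjusted 0.0106 for each), with rho of 0.71, 0.59 and 0.58 (permutation p = 0.0118, 0.0486 and 0.0520, adjusted 0.124, 0.273 and 0.273). Without these 2 labelled-male libraries r was 0.41, 0.37 and 0.28, so the relations rest largely on them. The adjustment does not cover the choice of the measure after the values were seen, so these p-values are description and no test. By their exon lengths, Ntrk2 and Ntrk3 were themselves among the long models, and Ntf3 among the short. For Bdnf, Ntf3 and Ngfr, with 6217, 1714 and 3446 bases of exon, the relation did not pass. Of 14 cell type marker lists, 3 had their lowest sums in the same 2 libraries. In SERTPyramid replicate 3 and control replicate 1, astrocyte markers summed to 3349 and 3305 CPM, against 3570 to 3977 CPM in the other 10 libraries. Pericyte and smooth muscle markers summed to 221 and 216 CPM, against 224 to 253 CPM. Cajal-Retzius cell markers summed to 530.4 and 533 CPM, against 538 to 601 CPM. Pyramidal neuron markers were lowest in SERTPyramid replicate 3, at 1971 CPM, but control replicate 1, at 2028 CPM, lay within the other 10. The part of transcript length or of these cell types in the receptor values was not tested.

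**Figure D4:**
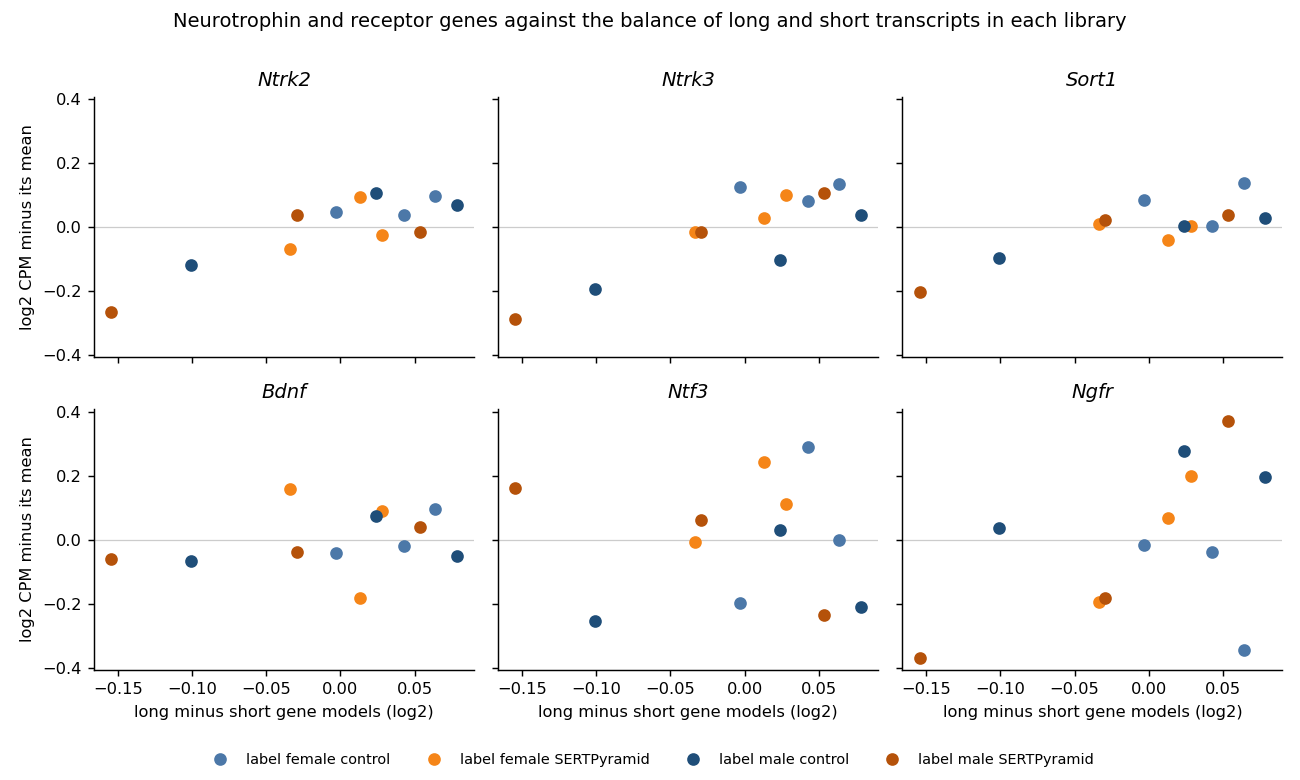
Log2 deviation of each of the 6 genes from its mean over 12 libraries against the long-minus-short transcript balance of the library, both on the log2 scale, with 1 point for each library. Ntrk2, Ntrk3 and Sort1 are lowest in the leftmost libraries, labelled-male SERTPyramid replicate 3 at -0.15 and labelled-male control replicate 1 at -0.10.

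Genes whose log2 CPM followed each of the 6 most closely were taken from 12712 genes by Pearson's r over the 12 libraries, as a description without a test. For Sort1 they were Dgkh, Epha6 and Plppr4, with r of 0.98, 0.96 and 0.96. For Ntrk2 they were Soga1, Rab11fip4 and Kcnq5, with 0.97, 0.95 and 0.95, and for Ntrk3 they were Kcnq3, Anapc1 and Shisa7, with 0.94 each. The nearest genes of the other 3 were less alike. Bdnf had Snw1, Acvr1c and Rnf13 at 0.84, 0.83 and 0.83, Ntf3 had Rad1, Pvt1 and Zfp870 at 0.84, 0.82 and 0.80, and Ngfr had Slc5a6, Adamtsl1 and Slc25a13 at 0.89, 0.87 and 0.86.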

How the data were processed

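Libraries were prepared from 250 ng of total RNA by a TruSeq v2 kit, without strand marking, per the labels' protocols. The deposited table holds raw read counts per Ensembl gene for 12 libraries, with 0 columns left unmapped and 0 rows that name no gene. The build is mm10, per the submitters' processing notes; the sources used here do not give aligner, counter, annotation or read length. Gene positions and exon lengths came from GENCODE M21 (GRCm38).

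CPM values of single libraries are counts over library totals. Tests used the counts: filterByExpr left 17631 genes, scaled by TMM (factors 0.983 to 1.021), with edgeR 4.0.16 quasi-likelihood F tests under R 4.3.3, all 12 libraries in 4 groups and Benjamini-Hochberg adjustment over all genes. An SE was taken by dividing a log2 fold change's size by the root of its F statistic. Same-group libraries differed beyond sampling noise, with chi-square over degrees of freedom of 2.52 to 13.8. On simulated counts (17444 genes, labelled-female comparison) the test recovered 12% of 1.2-fold, 54% of 1.5-fold, 86% of 2-fold and 92% of 4-fold changes, with 10 false calls.

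Alternatives were DESeq2 1.42.0, limma 3.58.1 voom, 1 surrogate variable (sva 3.50.0), other scaling and filters, a replicate block, the compared groups alone, a Y-linked covariate, and leaving out libraries. Named genes were the 6 members, of each list those past the threshold or else the 2 with the smallest p, and the 3 most alike for each member, predicted models left out. A few genes picked in this way are not reported here. The members and lists were chosen with earlier results of these data known. Exon length from the basic transcript set, the single-library omissions in the labelled-female fit and the transcript length balance (pseudocount 0.5 CPM) were added after the data were seen. Correlations used 100000 permutations.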

Additional observations from a re-analysis of the deposited data

How the results depend on the processing

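Across 672 values of the 30 member results under alternatives, 631 kept their direction and 1 passed the threshold. It was Ntrk3 between labelled sexes with no low-count filter, at -0.15 (adjusted p = 0.0308 by edgeR), where 194 of 34328 genes were called. The count of 631 was in part fixed in advance. An adjusted p of 0.1 changes only the threshold, so its values repeat the main log2 changes and cannot turn. Of the 672 values, 360 came from leaving out each library in turn. For genotype within a label, omitting a library of the other label leaves the compared groups unchanged. Some directions turned. With limma voom these were Bdnf among labelled females (-0.0087) and on average (-0.015), and Ntrk3 among labelled males (-0.021). With 1 surrogate variable they were Ntrk2 among labelled females (0.028) and Sorcs2 on average (0.0072). With the Y-linked covariate they were Ntrk3 among labelled males (-0.0031) and the Sort1 difference between labelled sexes (0.0059), and without control replicate 1 of both labelled sexes the same values were -0.024 and 0.0069. The causes were not tested.

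Counts of genes called moved more. With no low-count filter, of 34328 genes, they were 103 among labelled females, 5 among labelled males and 66 on average. They were 14 for the difference between labelled sexes and 194 for labelled sex. DESeq2 gave 1, 0, 0, 1 and 19 in these 5 comparisons. Labelled-female libraries alone gave 415. For labelled sex, limma voom gave 1, an adjusted p of 0.1 gave 1 and omitting both control replicates 1 gave 13. Leaving out each library in turn gave 0 to 2 genes among labelled females, 136 (without SERTPyramid replicate 2) to 464 in the labelled-female fit alone, 0 in every fit among labelled males and for the difference, 0 to 144 on average (144 without labelled-male SERTPyramid replicate 2) and 0 to 73 for labelled sex (73 without labelled-male SERTPyramid replicate 1). With the basic transcript set, levels per kilobase were 32.0 for Ntrk2, 9.87 for Ntrk3 and 46.1 for Sort1.

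Leaving out each library in turn, log2 changes spanned 0 among labelled females for Bdnf (-0.045 to 0.11) and Ntf3 (-0.030 to 0.22), among labelled males for Bdnf (-0.035 to 0.041), Ntrk3 (-0.061 to 0.13) and Sort1 (-0.064 to 0.051), on average for Bdnf (-0.025 to 0.053), Ngfr (-0.15 to 0.054), Ntrk3 (-0.066 to 0.028) and Sorcs3 (-0.010 to 0.042), for the difference between labelled sexes for Bdnf (-0.040 to 0.12), Ntf3 (-0.17 to 0.075) and Ntrk2 (-0.049 to 0.10) and for labelled sex for Ngfr (-0.0032 to 0.20).

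Replicate numbers were checked for pairing. Same-numbered libraries of different groups correlated at -0.38 to 0.38 over 5000 genes, over 0.1 in 6 of 18 pairs. Of 12 libraries, 4 correlated best with their own number, so numbers were not treated as pairs in the main fit. Replicates 1 correlated at 0.25 to 0.38 with each other, except labelled-male control replicate 1, at -0.21 to -0.04 with the rest. Whether libraries shared litters or handling was not tested. The 3 highest correlations between different numbers were among labelled males: 0.67 for control 1 with SERTPyramid 3, 0.60 for control 3 with SERTPyramid 2 and 0.47 for control 2 with SERTPyramid 1. A replicate block called 1 gene for labelled sex and changed no call of the 6 members. Depth limits Ngfr most, at 107 to 183 counts.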
